A study of Homo sapiens with 6 samples.

Results

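The integrin genes described here encode receptor subunits that bind collagens and laminins. They are 8 genes, ITGA1, ITGA2, ITGA10 and ITGA11 for collagens and ITGA3, ITGA6, ITGA7 and ITGB4 for laminins, matched by gene name among the 58735 genes of the count table. All 8 had enough reads to be tested, together with 15768 genes in all. They were measured by RNA-seq in ES2 cells, a human ovarian cancer line that the labels class as high-grade serous carcinoma. The siUAP1 group (3 libraries) was transfected with small interfering RNA against UAP1, which makes the sugar donor UDP-N-acetylglucosamine. The control group (3 libraries) was transfected with a control siRNA. The labels list 2 siRNAs for UAP1 and 1 control siRNA, without saying whether the pair was mixed or which library received which. Both groups came from the same line, labelled wild type, in serum-containing medium, with the medium changed 6 hours after transfection and RNA taken at 48 hours. The labels do not say that the replicates were separate cultures, so the p-values measure only the spread between these libraries, which may be technical.

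Integrins are receptors of 1 alpha and 1 beta chain that span the cell membrane and join the matrix outside to the actin or keratin skeleton inside. The collagen-binding alpha chains and ITGA3 and ITGA7 pair with the beta 1 chain, encoded by ITGB1, whereas ITGA6 pairs with beta 1 or with beta 4, the chain of hemidesmosomes. In ovarian cancer these receptors are known for holding cells to the collagen and laminin that lie under the peritoneal lining.

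The libraries held between 21267240 and 25972582 counted reads. UAP1 itself, the targeted gene, had 21.8, 23.2 and 25.2 CPM (counts scaled to library size by the TMM method) in siUAP1 replicates 1, 2 and 3, against 345, 357 and 444 CPM in control replicates 1, 2 and 3. That was a 16.3-fold fall (log2 change -4.03, SE 0.136, adjusted p = 6.12e-06, edgeR on the groups alone), and the groups did not overlap. Replicates of the same number deviated together, so results are given from a fit that also holds the replicate pair, and for the integrin genes also from the groups alone. The pair decides most calls: edgeR on the groups alone called 17 genes (0.108% of those tested), and edgeR with the pair called 2556 (16.2%), with 1430 higher (9.07%) and 1126 lower (7.14%) in siUAP1 cells. Below, "rose" and "fell" mean an adjusted p under 0.05 (edgeR's quasi-likelihood test with Benjamini-Hochberg adjustment over all tested genes) in the fit with pairs. The main design is the groups alone, so these words do not mean a call in the main fit.

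With the pairs, 3 of the 8 integrin genes rose in siUAP1 cells, ITGA1, ITGA2 and ITGA3, and 0 fell, where 9.07% of all tested genes rose. The 8 genes were chosen with earlier results of these data known, so this count is a description with no test. ITGA6 ended just short of the threshold and the other 4 genes were not called either. On the groups alone edgeR called 0 of the 8, and 1 had an unadjusted p under 0.05, as had 1125 of the 15768 tested genes. DESeq2 on the groups alone called 1 (ITGA3) and limma-voom called 0. Their counts over all genes are given at the end. With no filter on low counts, edgeR on the groups alone called ITGA1, ITGA2 and ITGA3 (adjusted p = 0.000376, 0.0117 and 0.00697). Of 17 fits without pairs, this was the only 1 to call ITGA1 or ITGA2, and 2 called ITGA3. ITGA3 was the 1 member whose 3 siUAP1 libraries all stood above all 3 control libraries, which held for 6.74% of tested genes.

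ITGA1 and ITGA2, the genes of 2 collagen receptors, lie next to each other on the forward strand of chromosome 5. ITGA1 spans positions 52787896 to 52959210 and ITGA2 spans positions 52989326 to 53094779 (GRCh38), with 30115 bases and 0 whole genes between them. Because both rose and because ITGA1 shares its RefSeq start with PELO, the gene of a ribosome rescue factor, the bases before their starts are shown. They come from RefSeq (GRCh38.p14), forward strand, cut back to end before the annotated start of each gene. The ITGA1 stretch is chr5:52787666-52787895, and the ITGA2 stretch is chr5:52989102-52989325. Before 20 bases were cut off, the ITGA1 window was also the PELO window in RefSeq, chr5:52787666-52787915. Capitals mark the GC box GGGCGG, searched on both strands.
ITGA1: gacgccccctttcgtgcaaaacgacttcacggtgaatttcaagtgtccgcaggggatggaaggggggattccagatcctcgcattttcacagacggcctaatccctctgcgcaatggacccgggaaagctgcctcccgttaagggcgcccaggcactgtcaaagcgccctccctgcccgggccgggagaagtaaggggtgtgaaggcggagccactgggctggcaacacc
ITGA2: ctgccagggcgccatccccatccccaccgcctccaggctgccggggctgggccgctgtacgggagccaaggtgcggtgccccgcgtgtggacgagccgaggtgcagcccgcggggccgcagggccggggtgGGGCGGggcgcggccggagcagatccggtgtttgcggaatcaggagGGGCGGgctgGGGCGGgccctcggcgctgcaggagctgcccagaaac
The ITGA1 stretch was 61.7% G or C and held 0 GC boxes, whereas the ITGA2 stretch was 77.2% G or C and held 3. In whole windows of 250 bases, a GC box was found in 42.6% of 35116 RefSeq promoters, and the median content of G and C was 58%. The whole ITGA1 window was 62% G or C with 0 GC boxes, and the whole ITGA2 window was 76.4% with 4. The AP-1 element, TGANTCA, searched on both strands, had no match in either window, against 6.57% of all windows. The TATA box, TATAAA, had none in either, against 10.7% of all windows, and the TEAD element, GGAATG, had none, against 11.9%. A window was found for 5 of the 8 genes. These letters describe the windows and say nothing of which factors bind there.

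ITGA1 (ENSG00000213949), the alpha 1 chain that favours basement membrane collagen, had 98.2, 70.6 and 46.0 CPM in siUAP1 replicates 1, 2 and 3, against 61.1, 47.0 and 29.3 CPM in control replicates 1, 2 and 3. The level was highest in replicate 1 and lowest in replicate 3 in both groups, and the groups overlapped, although each siUAP1 library stood above its own control. ITGA1 rose 1.56-fold with the pairs (log2 change 0.64, SE 0.0567, adjusted p = 8.05e-09, edgeR), with log2 differences of 0.68, 0.59 and 0.65 in pairs 1, 2 and 3. On the groups alone the change was 0.65 (SE 0.305, adjusted p = 0.75, edgeR), since the highest library exceeded the lowest 2.13-fold within the siUAP1 group and 2.09-fold within the control group.

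The ITGA1 exons share 475 of 18566 bases (2.56%) with PELO on the same strand, so some reads of the 2 genes may have been split between them. PELO counts came to 30.2% of ITGA1 counts over all libraries, so the share of reads affected may exceed the share of bases. How many ITGA1 reads this concerns was not measured. PELO had 15.8, 19.0 and 17.0 CPM in siUAP1 replicates 1, 2 and 3, against 17.4, 19.2 and 17.1 CPM in control replicates 1, 2 and 3. The groups overlapped, and PELO did not pass the test (log2 change -0.05, SE 0.0901, adjusted p = 0.773 with pairs, edgeR). The ratio of ITGA1 to PELO, in FPKM (fragments scaled to gene length and library size) and added after the values were seen, was 1.45, 0.869 and 0.634 in siUAP1 libraries and 0.821, 0.572 and 0.401 in control libraries. It was higher in siUAP1 cells in every pair, by 0.82, 0.60 and 0.66 on the log2 scale, a description with no test.

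ITGA2 (ENSG00000164171), the alpha 2 chain that favours fibrillar collagen, had 219, 154 and 141 CPM in siUAP1 replicates 1, 2 and 3, against 170, 110 and 84.4 CPM in control replicates 1, 2 and 3. As for ITGA1, replicate 1 was highest and replicate 3 lowest in both groups, the groups overlapped, and every siUAP1 library exceeded its own control. ITGA2 rose 1.44-fold with the pairs (log2 change 0.53, SE 0.0567, adjusted p = 1.96e-07, edgeR), by 0.37, 0.49 and 0.74 in pairs 1, 2 and 3. On the groups alone the change was 0.50 (SE 0.254, adjusted p = 0.785, edgeR).

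ITGA10 (ENSG00000143127; chromosome 1, positions 145891208 to 145910189, reverse strand), a collagen receptor chain known from cartilage, had 62.8, 27.2 and 33.4 CPM in siUAP1 replicates 1, 2 and 3, against 59.6, 34.7 and 32.8 CPM in control replicates 1, 2 and 3. Replicate 1 was high in both groups and the groups overlapped. The pairs did not share a direction (log2 differences of 0.07, -0.35 and 0.03), and the change was -0.07 (SE 0.0735, adjusted p = 0.574 with pairs, edgeR), against -0.04 (adjusted p = 0.996) on the groups alone.

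ITGA11 (ENSG00000137809; chromosome 15, positions 68296533 to 68432162, reverse strand), the collagen receptor chain of fibroblasts, was near the limit of detection. It had 89, 86 and 13 counts in siUAP1 replicates 1, 2 and 3, against 51, 62 and 16 counts in control replicates 1, 2 and 3. Replicate 3 was low in both groups, and the change did not pass the test (log2 change 0.38, SE 0.266, adjusted p = 0.392 with pairs, edgeR), nor on the groups alone (0.46, adjusted p = 0.98).

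ITGA3 (ENSG00000005884; chromosome 17, positions 50055968 to 50090481, forward strand), the alpha 3 chain of an epithelial laminin receptor, had 979, 1085 and 989 CPM in siUAP1 replicates 1, 2 and 3, against 663, 768 and 716 CPM in control replicates 1, 2 and 3. The groups did not overlap, averaging 1018 ± 58.5 CPM in siUAP1 cells and 716 ± 52.3 CPM in control cells (SD, n = 3 each). ITGA3 rose 1.42-fold with the pairs (log2 change 0.51, SE 0.0466, adjusted p = 1.38e-08, edgeR), by 0.56, 0.50 and 0.47 in pairs 1, 2 and 3. On the groups alone the change was also 0.51 (SE 0.0970, adjusted p = 0.14, edgeR), and DESeq2 on the groups alone gave an adjusted p of 0.0053.

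ITGA6 (ENSG00000091409; chromosome 2, positions 172427354 to 172506282, forward strand), the alpha 6 chain that pairs with beta 1 or beta 4, had 397, 509 and 480 CPM in siUAP1 replicates 1, 2 and 3, against 374, 460 and 432 CPM in control replicates 1, 2 and 3. Replicate 1 was lowest and replicate 2 highest in both groups, and the groups overlapped. The change was small and in the same direction in every pair (log2 differences of 0.09, 0.15 and 0.15). With pairs it was 0.13 (SE 0.0456, adjusted p = 0.0536, edgeR), just outside the threshold, and 3 of 9 fits that held the pairs called it. Without pairs the change was 0.13 (SE 0.124, adjusted p = 0.948, edgeR).

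ITGA7 (ENSG00000135424; chromosome 12, positions 55684568 to 55716043, reverse strand), the laminin receptor chain of muscle, had 25, 32 and 37 counts in siUAP1 replicates 1, 2 and 3, against 34, 27 and 33 counts in control replicates 1, 2 and 3. ITGB4 (ENSG00000132470; chromosome 17, positions 75721328 to 75757818, forward strand), the beta 4 chain that anchors hemidesmosomes to keratin, had 14, 34 and 19 counts in siUAP1 replicates, against 30, 29 and 21 counts in control replicates. The groups overlapped for both genes. The log2 change was -0.09 (SE 0.327, adjusted p = 0.895) for ITGA7 and -0.38 (SE 0.379, adjusted p = 0.57) for ITGB4, both with pairs in edgeR. Without pairs edgeR gave -0.10 (adjusted p = 0.994) for ITGA7 and -0.36 (adjusted p = 0.971) for ITGB4. Counts this low leave wide errors, so a moderate change in either gene was not detectable.

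**Figure D1:**
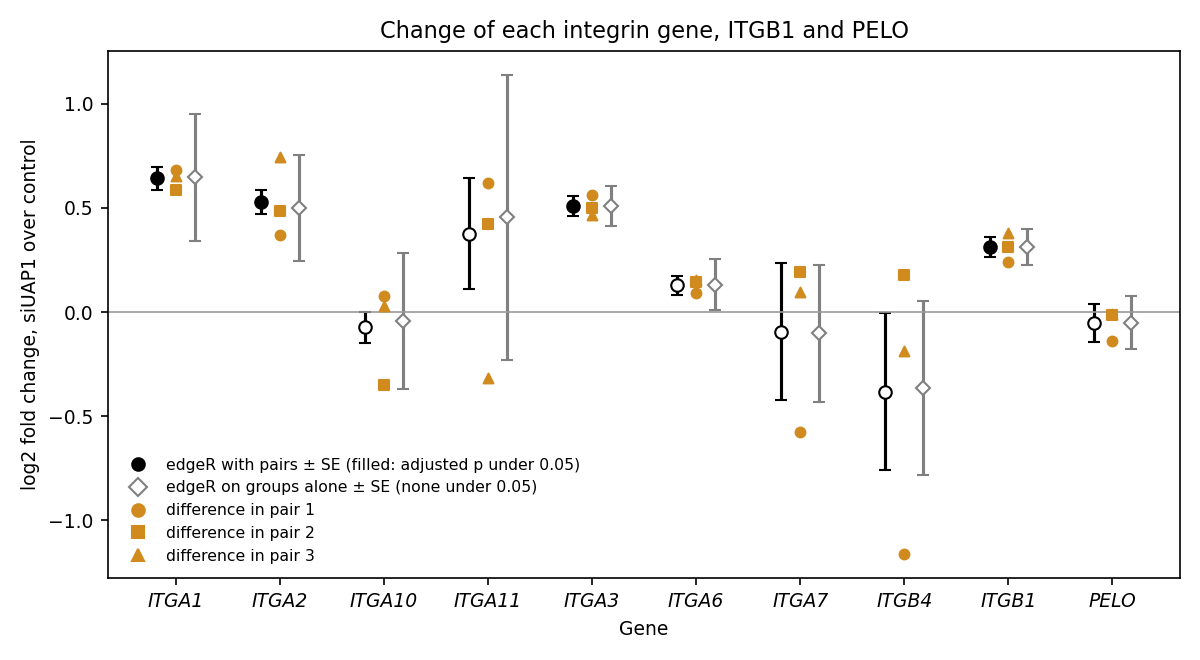
Log2 fold change of each integrin gene, of ITGB1 and of PELO (vertical axis, siUAP1 over control). Black circles are edgeR with pairs and grey diamonds edgeR on the groups alone, both with SE, and orange symbols are the differences in pairs 1, 2 and 3; filled black circles (ITGA1, ITGA2, ITGA3 and ITGB1) have an adjusted p under 0.05.

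ITGB1 (ENSG00000150093; chromosome 10, positions 32900319 to 33005792, reverse strand), the shared beta 1 partner and not one of the 8, had 1376, 1456 and 1506 CPM in siUAP1 replicates 1, 2 and 3, against 1165, 1172 and 1159 CPM in control replicates 1, 2 and 3. The groups did not overlap. ITGB1 rose 1.24-fold with the pairs (log2 change 0.31, SE 0.0477, adjusted p = 3.61e-05, edgeR), and the groups alone gave 0.31 (SE 0.0856, adjusted p = 0.323, edgeR).

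Levels of different genes were compared per length, in FPKM. ITGB1 was highest, at 227, 241 and 248 FPKM in siUAP1 libraries and 193, 193 and 192 FPKM in control libraries. ITGA3 followed, at 98.8, 110 and 100 FPKM in siUAP1 libraries and 67.3, 77.4 and 72.7 FPKM in control libraries, then ITGA6, at 60.2, 77.4 and 72.8 FPKM in siUAP1 libraries and 56.9, 69.6 and 65.8 FPKM in control libraries. ITGA3 exceeded ITGA6 in 6 of 6 libraries, although their ranges overlapped across libraries. ITGA2 came next, at 17.7 to 27.4 FPKM in siUAP1 libraries and 10.6 to 21.3 FPKM in control libraries. ITGA10 held 4.28 to 9.83 FPKM in siUAP1 libraries and 5.17 to 9.38 FPKM in control libraries, and ITGA1 held 2.46 to 5.24 FPKM in siUAP1 libraries and 1.57 to 3.27 FPKM in control libraries. Within each library the order ITGA2, ITGA10, ITGA1 held in 6 of 6 cases, while across libraries the ranges of ITGA10 and ITGA1 overlapped. ITGA11, ITGA7 and ITGB4 stayed under 0.5 FPKM in every library, and their order did not exceed their spread. The ITGA1 value per length divides by 18566 exon bases, against 7910 for ITGA2, so it depends on how much of that annotated length these cells transcribe. The counts are per gene and do not separate the splice forms of these genes.

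**Figure D2:**
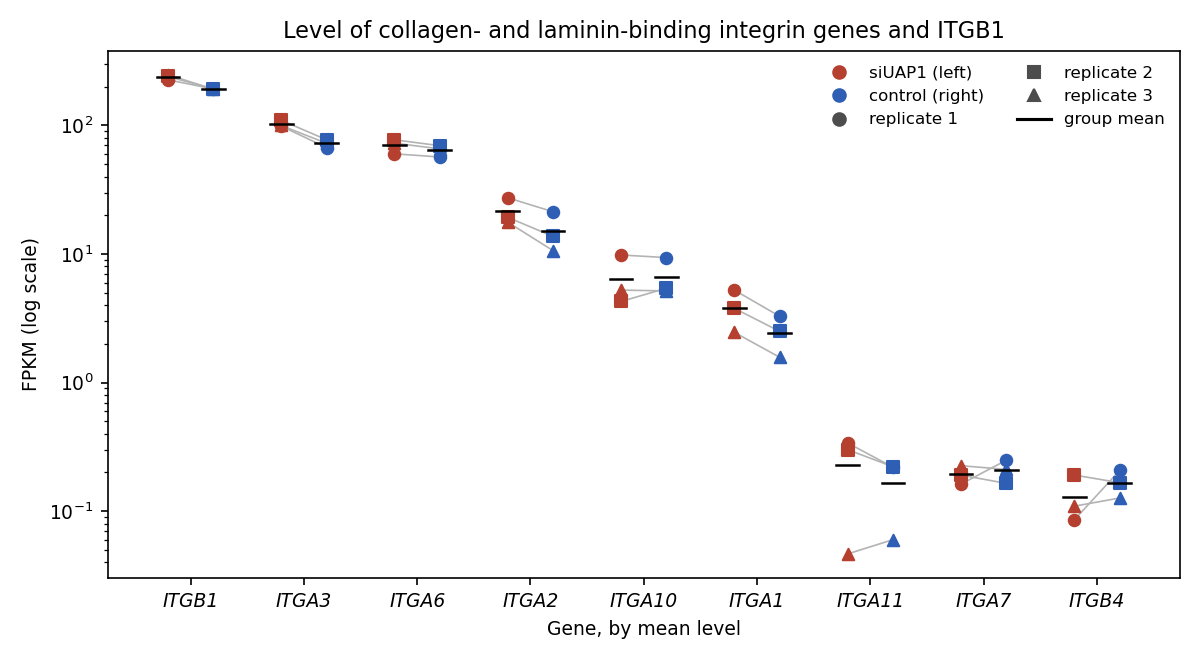
Level of each integrin gene and of ITGB1 (vertical axis, FPKM on a log scale), with siUAP1 libraries on the left and control libraries on the right of each pair of columns. Symbols are replicates 1, 2 and 3, grey lines join libraries of the same number and black bars are group means; ITGB1, ITGA3 and ITGA6 stand far above ITGA11, ITGA7 and ITGB4, which lie under 0.5 FPKM.

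Of the summed FPKM of the 7 alpha chains, ITGA3 made up 50.1 ± 1.10% in siUAP1 cells and 44.9 ± 2.20% in control cells (SD, n = 3 each). ITGA6 made up 34.2 ± 3.79% in siUAP1 cells and 39.7 ± 3.39% in control cells, and ITGA2 made up 10.5 ± 2.67% in siUAP1 cells and 9.45 ± 3.52% in control cells. The summed alpha level was 202, 215 and 198 FPKM in siUAP1 libraries, against 159, 169 and 156 FPKM in control libraries, and the groups did not overlap. Relative to ITGB1 that sum was 0.891, 0.894 and 0.799 in siUAP1 libraries and 0.823, 0.878 and 0.814 in control libraries, with overlapping groups (log2 change 0.04, exact permutation test, two-sided, p = 0.7).

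The ratio of ITGA3 to ITGA6, the 2 main laminin receptor chains, was 1.64, 1.42 and 1.37 in siUAP1 libraries, against 1.18, 1.11 and 1.10 in control libraries. The groups did not overlap, and the ratio was 1.30-fold higher in siUAP1 cells (exact permutation test, two-sided, p = 0.1, the smallest that 3 against 3 allows). The ratio of ITGA10 to ITGA2, added after the values were seen, was 0.359, 0.222 and 0.296 in siUAP1 libraries, against 0.440, 0.396 and 0.486 in control libraries. It was lower in siUAP1 cells in every pair, by a log2 change of -0.61 over the groups. Since this pair was picked for how its genes differed, the value is a description with no test. The ratio of ITGA1 to ITGA2 was 0.191, 0.196 and 0.139 in siUAP1 libraries and 0.154, 0.183 and 0.148 in control libraries, and the groups overlapped (log2 change 0.11, exact permutation test, two-sided, p = 0.7). The ratio of ITGB4 to ITGA6 was 0.00142, 0.00247 and 0.00150 in siUAP1 libraries and 0.00365, 0.00239 and 0.00192 in control libraries (log2 change -0.56, exact permutation test, two-sided, p = 0.3). The collagen-binding sum over the laminin-binding sum was 0.269, 0.147 and 0.147 in siUAP1 libraries and 0.275, 0.148 and 0.126 in control libraries, so replicate 1 was high in both groups and the groups overlapped (log2 change 0.06, exact permutation test, two-sided, p = 1).

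**Figure D3:**
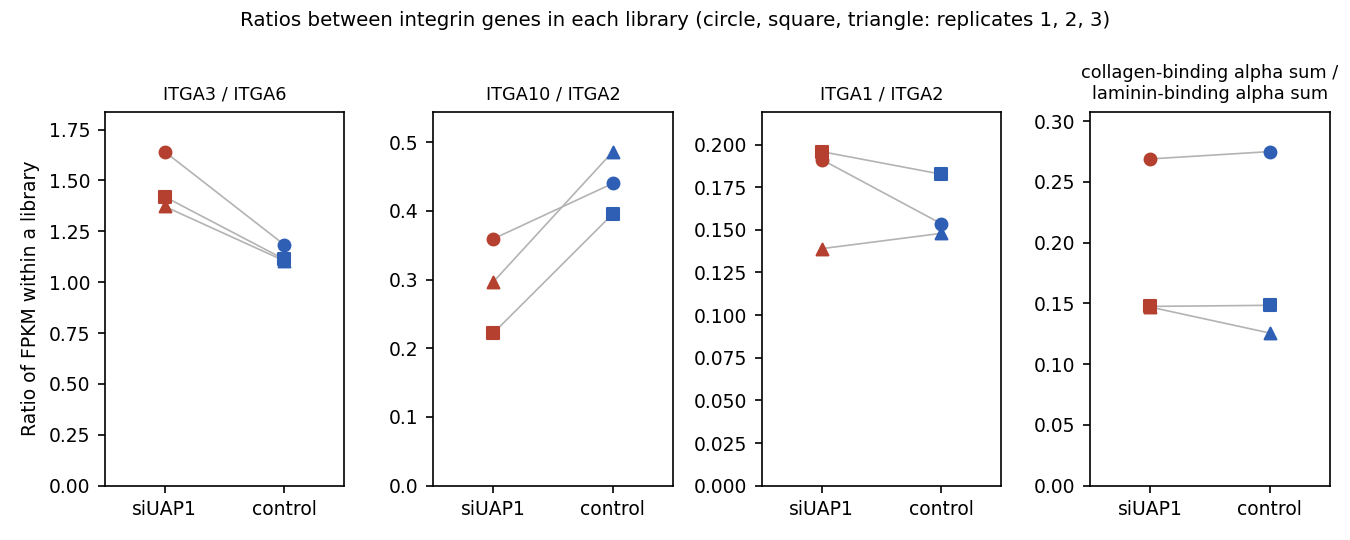
Ratios of FPKM within each library (vertical axis, from 0), with siUAP1 libraries on the left and control libraries on the right of each panel and lines joining libraries of the same number. The ITGA3 to ITGA6 ratio was 1.37 to 1.64 in siUAP1 libraries and 1.10 to 1.18 in control libraries, while the ITGA1 to ITGA2 ratio and the collagen to laminin ratio overlapped between groups.

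Likeness over the 6 libraries was measured as Pearson's r of log2 CPM against 10340 protein-coding genes. The genes most like ITGA1 were SDC2 (r = 0.996), ATP8A1 (0.996) and PPP2R2B (0.995), and those most like ITGA2 were EVA1A (0.998), ID1 (0.994) and CSNK1G2 (0.994). ITGA3 was closest to YBX3 (0.999), UHRF1BP1L (0.994) and WDR18, ITGA6 to KIAA0391 (0.996), PTBP3 (0.995) and PHLPP2 (0.993), and ITGA10 to PACSIN2 (0.999), KDM4A (0.997) and TIAL1 (0.993). With so many genes and so few libraries, which also share replicate pairs, such values describe these libraries only.

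Around the receptors, 124 other genes of the integrin system were listed, of which 102 were tested. With pairs 31 rose and 11 fell, where 9.07% of all tested genes rose and 7.14% fell. The lists were chosen with earlier results of these data known, so these counts are a description with no test. On the groups alone edgeR called 0 of them, and 23 had an unadjusted p under 0.05, against 1125 of the 15768 tested genes. DESeq2 on the groups alone called 9 of them and limma-voom called 0. All changes in the next paragraphs are log2 values from edgeR with pairs, and the median over all tested genes was -0.0029. A gene called with pairs can still have groups that overlap in CPM, as several below do.

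Of 17 other integrin chains 9 were tested, 6 rose and 0 fell, with a median of 0.44. They included ITGB5 (0.72), ITGA5 (0.66), which binds fibronectin, ITGA4 (0.62) and ITGAV (0.48). Of the collagen chains that these receptors bind, 17 of 22 were tested, 10 rose and 1 fell, with a median of 0.33. COL1A1 (0.85), COL4A1 (0.66), COL4A2 (0.65) and COL5A2 (0.42) rose, and COL13A1, a membrane collagen, fell by 0.19. In CPM the groups overlapped for COL1A1, COL5A2 and COL13A1 but not for COL4A1 and COL4A2. COL1A2 and COL4A4, named after their values were seen, were also among the 10 but stayed under 0.5 FPKM in every library. Of the laminin chains and basement membrane genes, 14 of 15 were tested, 4 rose and 0 fell, with a median of 0.03. The 4 were HSPG2 (0.49), the perlecan core protein, NID1 (0.68) and NID2 (1.23), which link laminin to collagen, and LAMA3 (0.24). In CPM the groups overlapped for all 4. For NID2, 30% of exon bases overlap RTRAF, so the NID2 count is uncertain. The abundant laminin chains LAMB1 (0.04), LAMC1 (0.04) and LAMB3 (-0.06), chosen after their values were seen, did not pass the test.

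Of the collagen and laminin receptors outside the integrin family, 8 of 10 were tested, 3 rose and 1 fell. The collagen receptor kinases DDR1 (0.65) and DDR2 (0.19) and the dystroglycan gene DAG1 (0.25) rose, and MCAM fell by 0.40, with its exons shared in part with CBL. Of the 6 hemidesmosome genes, which include ITGA6 and ITGB4, PLEC rose (0.15), COL17A1 fell by 0.38, and DST (-0.02) and CD151 (-0.13, adjusted p = 0.0587) did not pass. Of the 6 tetraspanins, membrane proteins that sit beside laminin-binding integrins, CD82 rose (0.99), whereas CD9 (-0.13), CD63 (-0.10), TSPAN4 (-0.09) and CD81 (-0.08) did not pass.

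Inside the cell, 25 of 28 activating and adhesion adaptors were tested, 4 rose and 4 fell. LIMS1 (0.69), which has near-identical copies, and TNS3 (0.33) were among those that rose, and BCAR1, an adhesion scaffold, fell by 0.18. A list drawn up as negative regulators of integrin activation held 6 genes, although FBLIM1 and KRIT1 are not plain inhibitors. Of these 6, ITGB1BP1 fell by 0.28 and FBLIM1 by 0.20, while SHARPIN (-0.05), DOK1 (0.20), KRIT1 (-0.04) and SWAP70 (0.05) did not pass. For ITGB1BP1, 33.1% of the exon bases are shared with ASAP2. FURIN, a protease that cleaves several integrin alpha chains, rose (0.41), while PCSK5 (-0.18) and PCSK7 (-0.07) did not pass and PCSK6 was too low to test. Of 12 recycling genes 10 were tested, 0 rose and 2 fell, RAB4A by 1.13 and RAB21 by 0.18, both guanosine triphosphatases of endosomes that return or take up integrins.

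**Figure D4:**
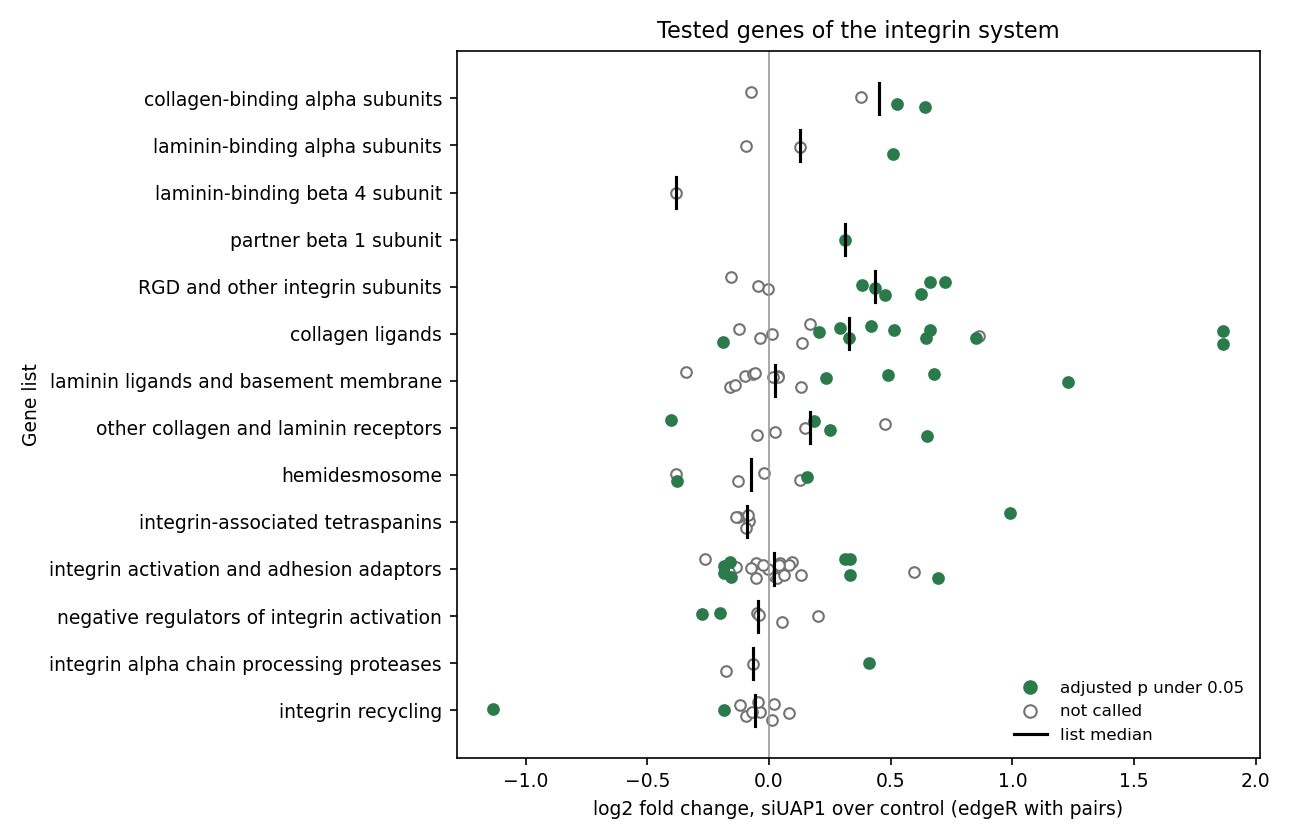
Log2 fold change, siUAP1 over control, from edgeR with pairs (horizontal axis) for each tested gene of the integrin system, by list. Filled green circles have an adjusted p under 0.05, open circles do not and black bars are list medians; the median was 0.44 for other integrin chains, 0.33 for collagens and 0.03 for laminins and basement membrane.

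Markers of the labelled tumour type were mostly low or absent. Of 12 ovarian serous markers, 8 were under 0.5 FPKM in every library and 3, MUC16, FOLR1 and SOX17, were listed at 0. WT1 was also low, at 0.312 to 0.526 FPKM in siUAP1 libraries and 0.420 to 0.595 FPKM in control libraries. The summed level of the 12 markers was 278 to 350 FPKM in siUAP1 libraries and 202 to 225 FPKM in control libraries. Almost all of it was KRT7, KRT8 and KRT18, led by KRT18 in 5 of 6 libraries and by KRT7 in siUAP1 replicate 3. KRT7, KRT8 and KRT18 rose. KRT8 and KRT18 share 525 exon bases on opposite strands (16.3% of KRT18 and 7.63% of KRT8), so both counts are uncertain. Of 6 leukocyte markers 5 were under 0.5 FPKM throughout and ITGB2 alone was tested and rose, with sums of 13.04 to 16.4 FPKM in siUAP1 libraries and 10.5 to 11.5 FPKM in control libraries. The 5 endothelial markers summed to 21.9 to 28.3 FPKM in siUAP1 libraries and 21.7 to 28.0 FPKM in control libraries, almost all of it CDH5, and none rose or fell. The 6 fibroblast and mesothelial markers summed to 4.18 to 9.37 FPKM in siUAP1 libraries and 4.23 to 7.25 FPKM in control libraries, led by PDGFRA, with DCN at 0. PDGFRB and CALB2 rose, although the groups overlapped for both. CALB2 had only 37, 7 and 15 counts in siUAP1 replicates 1, 2 and 3, against 11, 2 and 4 in control replicates. The 5 muscle markers stayed under 0.5 FPKM, led by MYH3, and of the 5 keratinocyte markers TP63 fell by 0.42 while KRT5, KRT14 and KRT1 were listed at 0. The part of these marker changes in the integrin results was not tested. In bulk libraries of the same cultured line, the share of cells expressing a gene and its RNA per cell cannot be told apart.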

How the data were processed

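Poly(A) RNA of 3 siUAP1 and 3 control libraries was sequenced on an Illumina instrument, per the labels' protocols, whose wording leaves poly(A) enrichment or rRNA depletion open. The authors deposited raw read counts per gene and FPKM values (fragments per kilobase of gene length, scaled to library size), per the file headers. GRCh38.p12 and DESeq2 are named, per the submitters' processing notes. Which aligner and counter made the counts, and whether strand was used, is not given in the sources used here. Gene starts and ends matched GENCODE 29 for 58735 of 58735 genes.

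Counts were tested with edgeR 4.0.16 (TMM, filterByExpr with a minimum count of 10, quasi-likelihood test, Benjamini-Hochberg over all 15768 tested genes, threshold 0.05), without and with the replicate number as a block. The main design is the groups alone. Same-numbered libraries had correlated deviations from their group means (r = 0.552, 0.454 and 0.584, all over 0.1; other pairs -0.434 to -0.0893), so blocked values stand beside the results. The pairing comes from the numbers in the sample titles and this check. Library names also match within each pair apart from the letter C or U. The labels do not say what the shared numbers or names stand for. Replicates of a group differed well beyond counting noise (chi-square over its degrees of freedom, 23.9 to 41.3). DESeq2 1.42.0 and limma 3.58.1 (voom, and log2(FPKM + 1) or + 0.1) were alternatives, with other normalizations, filters and leaving out libraries; blocked limma fits, the block with library totals and 2 ratios were added after seeing the data. The edgeR fits were also run on simulated data with an effect shared by same-numbered libraries built in. Such data cannot show whether these libraries have that structure. The planned FPKM ratios were compared by two-sided exact permutation tests, and the 2 added ratios were only described. Depth was 21267240 to 25972582 counts per library.

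The members and lists were chosen with earlier results of these data known. Named genes were the 8 members, ITGB1 and UAP1, up to 4 called members with the smallest p of each list, all members of lists of 7 or fewer, the most abundant gene of each marker list and the 3 genes most like each member over 5 mean CPM. A gene that this rule gives is not reported here.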

Additional observations from a re-analysis of the deposited data

How the results depend on the processing

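The replicate block decides the calls. Integrin genes called higher numbered 0 on the groups alone and 3 with the replicate block in edgeR, 3 with RLE size factors and the block, 3 in DESeq2 with the block, 3 in blocked limma on log2(FPKM + 0.1), and 4 in blocked limma-voom and in the block with library totals. Without the block, DESeq2 called 1 and edgeR with no filter beyond 1 count called 3, and leaving out any 1 library gave 0. With the block, leaving out a pair gave 3 to 4. The added call was ITGA6, whose adjusted p was 0.0177 to 0.361 over 9 blocked fits, while ITGA1, ITGA2, ITGA3 and ITGB1 were called in 9 of 9. No integrin gene was called lower in any fit.

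Over all genes, 5 were called higher and 12 lower on the groups alone. The replicate block gave 1430 higher and 1126 lower, with RLE 1401 and 1138, with library totals 1432 and 1155, in limma-voom 1421 and 1124, in DESeq2 744 and 567, and in limma on FPKM 543 and 377. Without the block, DESeq2 gave 95 and 70, no filter 182 and 91, a mean CPM of at least 5 gave 8 higher, limma-voom 3 higher, and limma on log2(FPKM + 1), log2(FPKM + 0.1) and unfiltered FPKM gave 0 higher and 2, 3 and 1 lower. Leaving out replicates gave 0 to 1238 higher and 1 to 966 lower; with the block they were 1238 and 966 without pair 1, 1110 and 877 without pair 2, and 742 and 453 without pair 3. The cause was not tested.

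Of the other pathway genes, the block called 31 higher and 11 lower, with RLE 31 and 11, with library totals and in limma-voom 31 and 12, in DESeq2 25 and 3, and in limma on FPKM 20 and 1. Unblocked, no filter gave 12 and 1 and DESeq2 8 and 1. Leaving out replicates gave 0 to 30 higher and 0 to 10 lower; with the block they were 30 and 5 without pair 1, 29 and 10 without pair 2, and 23 and 4 without pair 3.

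Uncalled changes that turned sign were ITGA7 without replicate 1 (0.15 with the block, 0.0053 without the siUAP1 and 0.041 without the control library; -0.25 the lowest, without control replicate 2), ITGB4 with the block and without pair 1 (0.013) and ITGA10 (0.052 with the block and without pair 2, 0.18 and 0.09 without siUAP1 replicates 2 and 3, 0.28 without control replicate 1; -0.48 the lowest, without siUAP1 replicate 1). The collagen to laminin ratio change ranged over -0.23 to 0.40 (-0.05 without control replicate 2, -0.17 without control replicate 3). The ratio changes were 0.30 to 0.43 for ITGA3 to ITGA6 and -0.78 to -0.43 for ITGA10 to ITGA2 when 1 library was left out. Within pairs, ITGA3 to ITGA6 had an exact p of 0.25, the smallest that 3 pairs allow. ITGA7, ITGA11 and ITGB4 are limited by depth.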
